A study of Mus musculus with 12 samples.

Results

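The genes of 8 enzymes of methionine and one-carbon metabolism were followed in the H3K27ac interaction networks of young and old mouse hepatocytes. They are Mat1a, Mat2a, Gnmt, Bhmt, Bhmt2, Cth, Shmt1 and Shmt2, chosen by name, out of 9593 protein-coding genes that the deposited gene columns list at either age. Hi-ChIP joins proximity ligation with immunoprecipitation, here against H3K27ac, the acetylation of lysine 27 on histone H3. That mark sits on active enhancers and promoters, so the assay recovers contacts between such regions. Hepatocytes came from collagenase-digested livers of male C57BL/6 mice, which were 5 months old in the young group and 25 months old in the old group. Each age had 6 libraries, from 2 biological replicates in 3 batches of technical repeats. No treatment or genotype other than age set the groups apart in the labels, but the young mice were bought from Charles River and the old mice came from the National Institute on Aging stock, so age and source cannot be told apart. The labels do not say whether a replicate was 1 animal or a pool.

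The authors deposited 1 network per age, whose nodes are 5 kb bins grouped into sets they call cliques. Clique size below is the number of nodes in the clique whose gene column lists the gene. With 1 network per age there is no spread between animals, and no p-value is given. Intervals are 95% Wilson intervals that cover counting error only and treat nodes as independent, which neighbouring bins are not. The young network held 56928 nodes in 5401 cliques, and the old network 40304 nodes in 5973 cliques. Read depth is unknown, and its part in the difference in network size was not tested. In bulk data of this kind, fewer cells of a type and less signal per cell cannot be told apart. Of 8 hepatocyte markers, 7 were listed at each age, with clique sizes that summed to 348 nodes in young and 208 in old. Of 25 markers of 5 other liver cell types, the young network listed 5 and the old network 2. Neither network listed any of the 5 Kupffer cell and macrophage markers. Listing and clique size were also lower in old across the genome. Protein-coding genes listed numbered 8688 at the young age and 7161 at the old age. Genes listed at both ages had median clique sizes of 30 (young) and 16 (old) nodes. No change in cell make-up is therefore read from the marker values. The part of other cells in the results was not tested.

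Methionine is converted by methionine adenosyltransferases to S-adenosylmethionine, the methyl donor of the cell. Once the methyl group is handed on, the remainder becomes homocysteine, which is either remethylated to methionine or drained through cystathionine to cysteine. Serine feeds single carbon units into folate, and these supply nucleotide synthesis and one route of remethylation. The liver carries out much of the body's methionine breakdown, and hepatocytes express Mat1a, Gnmt and Bhmt at high levels.

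The start site of each gene mattered for reading the networks, because the bin that holds it was a node of the listing clique at both ages in all 6 genes with a promoter entry in RefSeq (GRCm38.p6, the assembly of mm10). This was also the rule elsewhere: it held for 94.3% of 6997 listed protein-coding genes with such an entry in young and 91.9% of 5710 in old. In these shares any entry of a gene could qualify, while for the 6 genes only the first entry was used. The promoter windows of 5 genes are shown from 250 bases before to 50 bases after the start site, 5′ to 3′ on the coding strand. Gnmt is shown as the gene with the least difference in clique size, Mat2a and Shmt2 as those with the most, and Bhmt and Bhmt2 as a pair in the same clique. Capitals mark matches, on either strand, to the TATA box letters TATAAA, to the CCAAT box letters themselves, or to the GC box letters GGGCGG, and some matches of the last overlap each other.
Gnmt (chr17:46729116-46729415, minus strand): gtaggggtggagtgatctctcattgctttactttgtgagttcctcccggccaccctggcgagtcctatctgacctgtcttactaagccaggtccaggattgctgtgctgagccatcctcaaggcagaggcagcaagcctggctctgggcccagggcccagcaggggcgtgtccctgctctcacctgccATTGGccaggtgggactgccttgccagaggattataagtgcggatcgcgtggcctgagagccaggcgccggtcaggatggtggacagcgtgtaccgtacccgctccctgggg
Mat2a (chr6:72439507-72439806, minus strand): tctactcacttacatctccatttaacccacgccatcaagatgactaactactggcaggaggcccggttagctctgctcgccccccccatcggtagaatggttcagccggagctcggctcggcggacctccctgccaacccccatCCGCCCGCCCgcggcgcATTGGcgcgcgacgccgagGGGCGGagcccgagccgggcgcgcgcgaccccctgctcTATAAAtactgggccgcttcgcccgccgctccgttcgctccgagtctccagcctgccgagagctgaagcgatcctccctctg
Bhmt (chr13:93637709-93638008, minus strand): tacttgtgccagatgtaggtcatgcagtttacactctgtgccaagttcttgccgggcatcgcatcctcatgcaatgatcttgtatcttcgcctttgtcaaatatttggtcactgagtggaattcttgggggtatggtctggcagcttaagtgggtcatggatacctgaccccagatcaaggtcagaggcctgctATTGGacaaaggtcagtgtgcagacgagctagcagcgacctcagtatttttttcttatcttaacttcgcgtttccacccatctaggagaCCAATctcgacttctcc
Bhmt2 (chr13:93674253-93674552, minus strand): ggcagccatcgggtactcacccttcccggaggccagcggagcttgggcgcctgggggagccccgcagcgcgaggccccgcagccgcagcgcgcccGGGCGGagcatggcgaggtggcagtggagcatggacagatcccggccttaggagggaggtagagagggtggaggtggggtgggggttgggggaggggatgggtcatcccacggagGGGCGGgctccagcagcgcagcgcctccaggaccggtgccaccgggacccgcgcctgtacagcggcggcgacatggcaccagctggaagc
Shmt2 (chr10:127522395-127522694, minus strand): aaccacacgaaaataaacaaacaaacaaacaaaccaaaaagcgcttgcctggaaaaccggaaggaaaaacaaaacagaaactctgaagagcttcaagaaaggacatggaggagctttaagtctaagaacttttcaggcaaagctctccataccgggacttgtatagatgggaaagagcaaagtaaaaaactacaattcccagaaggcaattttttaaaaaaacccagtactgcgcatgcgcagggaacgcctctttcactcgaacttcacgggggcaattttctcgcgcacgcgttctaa

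The windows differed widely in composition. The Bhmt2 window was 73.7% G and C with 26 CpG pairs, while that of its neighbour Bhmt was 48% G and C with 8. The Mat2a window held 34 CpG pairs, the Shmt2 window 13 and the Gnmt window 11, against a median of 7 over 32851 promoter windows of the same length. Mat2a alone had TATAAA, which begins 32 bases before its start site and occurs in 13.6% of all windows. CCAAT was found in 4 of the 6 windows (Gnmt, Mat2a, Bhmt and Shmt1) and in 37.4% of all, and GGGCGG in 3 (Mat2a, Bhmt2 and Shmt1) and in 35.7% of all. The E-box letters CACGTG, searched in the same way, matched none of the 6 windows and 7.15% of all. The forkhead letters TGTTTAC matched none of the 6 and 3.65% of all, and GTTAAT, part of the site of HNF1 factors, none and 7.10%. The Shmt2 window therefore has no capitals. These matches are letters in a window and are not evidence of binding.

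All 8 genes were listed at both ages, each in a single clique per age. They were picked from the gene columns of both ages, so listing at both is not a result about them. Of all genes listed at either age, 65.2% were listed at both. All 8 had the smaller clique in old, as did 81.5% of the genes listed at both ages. Shmt2 went from 159 nodes to 2. Mat2a was in cliques of 143 and 34 nodes, Mat1a in cliques of 48 and 21, and Cth in cliques of 39 and 16. Bhmt and Bhmt2 shared cliques of 36 and 21 nodes. Shmt1, at 32 and 28 nodes, and Gnmt, at 36 and 35, were nearly level. The reduction was at least 2-fold for 4 of the 8 (Shmt2, Mat2a, Cth and Mat1a), compared with 38.4% of genes listed at both ages. The median size of the 8 was 37.5 nodes in young and 21 in old, against 30 and 16 over all genes listed at both ages. The median log2((old + 1)/(young + 1)) was -0.95 for the 8 genes and -0.63 for all genes listed at both ages. Because the old network was smaller throughout, sizes were also divided by the mean clique size of their network, called scaled sizes below. On that scale Gnmt was at 3.42 times the mean in young and 5.19 in old, and Shmt1 at 3.04 and 4.15. These 2 were larger in old on the scaled measure, and the other 6 were smaller. The same count over all genes was not made on this scale, so no trait of the 8 is read from it.

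**Figure D1:**
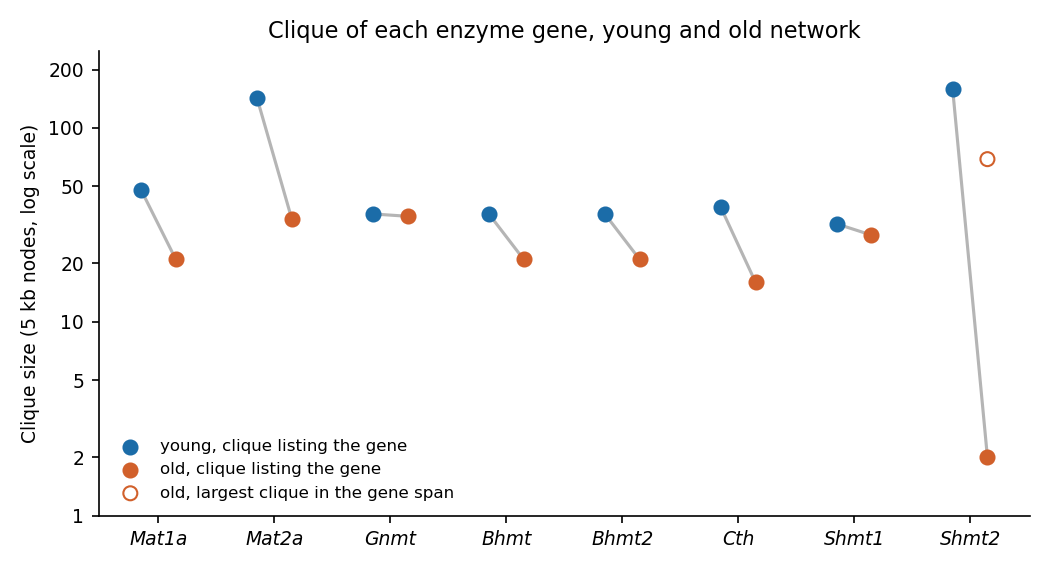
Clique size (5 kb nodes, log axis) of the clique listing each enzyme gene in the young network (blue) and the old network (orange), 1 value per age, with an open circle for the largest old clique in the gene span where it differs. Gnmt and Shmt1 are nearly level, Mat2a goes from 143 to 34 nodes, and Shmt2 goes from 159 to 2 nodes with 69 by gene span.

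The 8 genes lay in 7 distinct cliques per age, which held 493 young and 157 old nodes. Of the young nodes, 318 (64.5%, 60.2 to 68.6) were also nodes of the old network, compared with 55.6% of all young nodes. This share was close to that of cliques of like size, 63.6% of the nodes in young cliques of 30 to 49 nodes and 66.5% in those of 100 or more. Only 128 of the 493 (26.0%) were in the old clique that listed the same gene. A further 190 were in other old cliques, and 175 were absent from the old network. In the other direction 141 of the 157 old nodes (89.8%, 84.1 to 93.6) were present in young, against 78.5% of all old nodes. This share too was close to that of cliques of like size. In old cliques of 10 to 29 nodes 87.0% of the nodes were present in young, and in those of 30 to 49 nodes 89.9%. Only the old clique of Shmt2 was smaller than these. The smaller old cliques thus consisted mostly of bins that the young network also held. Of 117 young nodes within 50 kb of the genes 83 (70.9%) were present in old, and of the 376 farther away 235 (62.5%). The same split over all genes was not made. Gnmt alone went the other way, with 9 of 14 near and 18 of 22 far nodes present. The cliques of Mat2a and Shmt2 supplied 122 and 149 of the far nodes.

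**Figure D2:**
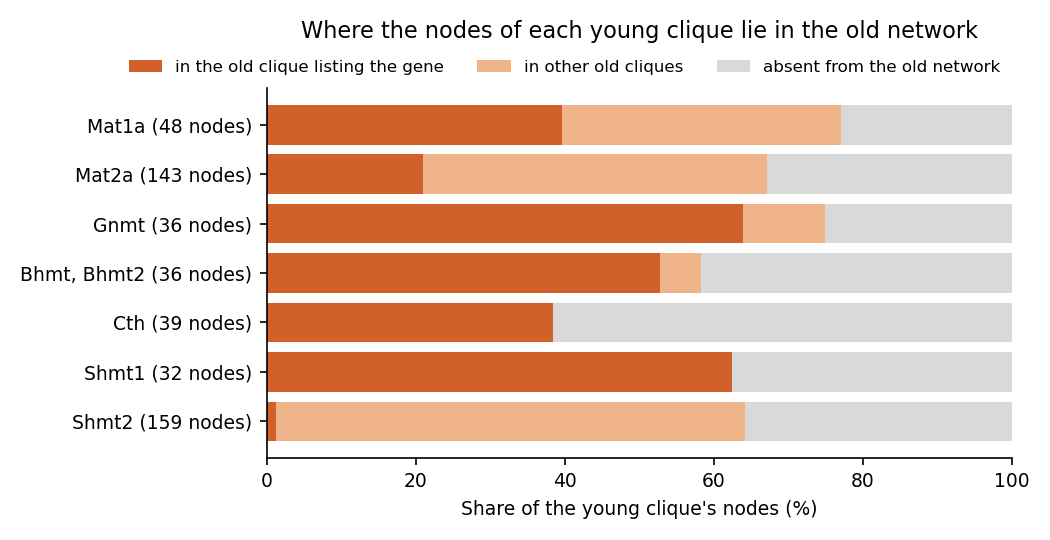
Share (%) of the nodes of each young clique that lie in the old clique listing the same gene (dark orange), in other old cliques (light orange) or in no old clique (grey). The old clique listing the gene holds 63.9% of the nodes for Gnmt, 62.5% for Shmt1 and 52.8% for Bhmt and Bhmt2. For Cth 24 of 39 are absent, and other old cliques hold 100 of 159 for Shmt2 and 66 of 143 for Mat2a.

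Mat1a encodes the adenosyltransferase of adult liver (chromosome 14, 41105012 to 41124428). Its young clique of 48 nodes spanned 300 kb, and in old it was represented by 2 cliques of nearly equal size. The old clique listing Mat1a had 21 nodes over 115 kb, 19 of them from the young clique. A second old clique of 20 nodes held 18 more and listed Tspan14 and Prxl2a. All 4 bins of the gene span were nodes of the listing clique at both ages. Altogether 37 of the 48 young nodes (77.1%, 63.5 to 86.7) were present in old, a higher share than in 79.2% of the 346 young cliques of 30 to 49 nodes. The protein-coding genes listed with Mat1a at both ages were Sftpa1, a surfactant protein gene, and Mbl1, a mannose-binding lectin gene. Sftpd, another surfactant protein gene, was with Mat1a in young and in no old clique. Sftpd, Tspan14 and Prxl2a, and the other co-listed genes below beyond the nearest 4, were chosen after their values were seen.

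Mat2a encodes the adenosyltransferase of most other tissues (chromosome 6, 72432796 to 72439556). Its young clique of 143 nodes spanned 1035 kb and listed 18 protein-coding genes. Of its nodes 96 (67.1%, 59.1 to 74.3) were present in old, spread over 8 cliques, and young cliques of 100 or more nodes had a median of 7. The largest of these old cliques did not list Mat2a: it had 48 nodes, of which 44 came from the young clique, and listed Atoh8 and St3gal5. The old clique listing Mat2a had 34 nodes over 380 kb, and 30 of them came from the young clique. Another old clique of 12 nodes held 11 and listed Vamp5, Vamp8, Usp39 and Rnf181. Of the 17 protein-coding genes listed with Mat2a in young, 6 were still listed with it in old, 9 were in other old cliques and 2, Capg and Polr1a, were in none. The nearest of the 6 were Ggcx, the gene of the vitamin K-dependent carboxylase, then Sh2d6, Elmod3 and Retsat, the gene of retinol saturase. The bin with the start site was a node at both ages, and the other bin of the gene span was a node in young only. Particl, a noncoding gene named after the Mat2a promoter, was listed with Mat2a at both ages.

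Gnmt transfers a methyl group from S-adenosylmethionine to glycine and so disposes of excess methyl donor in hepatocytes (chromosome 17, 46725664 to 46729211). Its cliques of 36 and 35 nodes were alike in size but not in membership. They shared 23 nodes, a Jaccard index (shared nodes over nodes in either) of 0.479, where the median best index of young cliques of 30 to 49 nodes was 0.5. In old the clique reached farther, over 475 kb against 255 kb, and filled 36.8% of the bins in its span against 70.6%. Of the 12 other old nodes, 6 had been in a young clique of 11 nodes that listed Slc22a7 and Cul9. Both genes were listed with Gnmt in old only, as was Srf, a transcription factor gene. The 7 protein-coding genes listed with Gnmt at both ages included its nearest neighbours Cnpy3, 2310039H08Rik, Rpl7l1 and Rrp36. Pex6, a peroxisome assembly gene, and Bicral were with Gnmt in young and in no old clique. The bin just above the start-site bin was in the same young clique but in a separate old clique of 2 nodes.

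Bhmt encodes the enzyme that remethylates homocysteine with betaine (chromosome 13, 93616891 to 93637758), and Bhmt2 a related methyltransferase that uses S-methylmethionine (93656097 to 93674302). They shared their clique at both ages with Dmgdh, whose mitochondrial enzyme oxidises the dimethylglycine that the Bhmt reaction releases, and with Jmy. Of the 36 young nodes 21 (58.3%, 42.2 to 72.9) were present in old and 19 lay in the same old clique, a Jaccard index of 0.5. The losses were mostly on the side of lower coordinates, away from Bhmt2 and Dmgdh. Below Bhmt, 5 of 16 young nodes were present in old, compared with all 4 in the gene span and 12 of 16 above it. The clique spanned 740 kb in young, against 385 kb in old. Homer1, on the lower side, was listed in no old clique, and Tent2 in a separate old clique of 2 nodes. The bins with the start sites of Bhmt and Bhmt2 were nodes of the shared clique at both ages. Dmgdh starts on the opposite strand 134 bp from the start of Bhmt2 and within the Bhmt2 promoter window printed above, so at 5 kb resolution these 2 promoters are a single node.

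Cth encodes cystathionine gamma-lyase, which releases cysteine in the last step of transsulfuration (chromosome 3, 157894248 to 157925081). It kept the smallest share of its young nodes among the 7 cliques. Only 15 of 39 (38.5%, 24.9 to 54.1) were present in old, a lower share than in all but 6.65% of the young cliques of 30 to 49 nodes. All 15 lay in the old clique of 16 nodes that listed Cth. None of the 10 young nodes below the gene was present in old, even when a neighbouring bin was accepted as a match. Within the gene span 3 of 8 nodes were present in old, and 12 of 21 above it. The clique spanned 525 kb in young and 165 kb in old. All 3 protein-coding genes listed with Cth in young, Ankrd13c, Srsf11 and Lrrc40, were still listed with it in old, and these lie on the side that was retained.

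**Figure D3:**
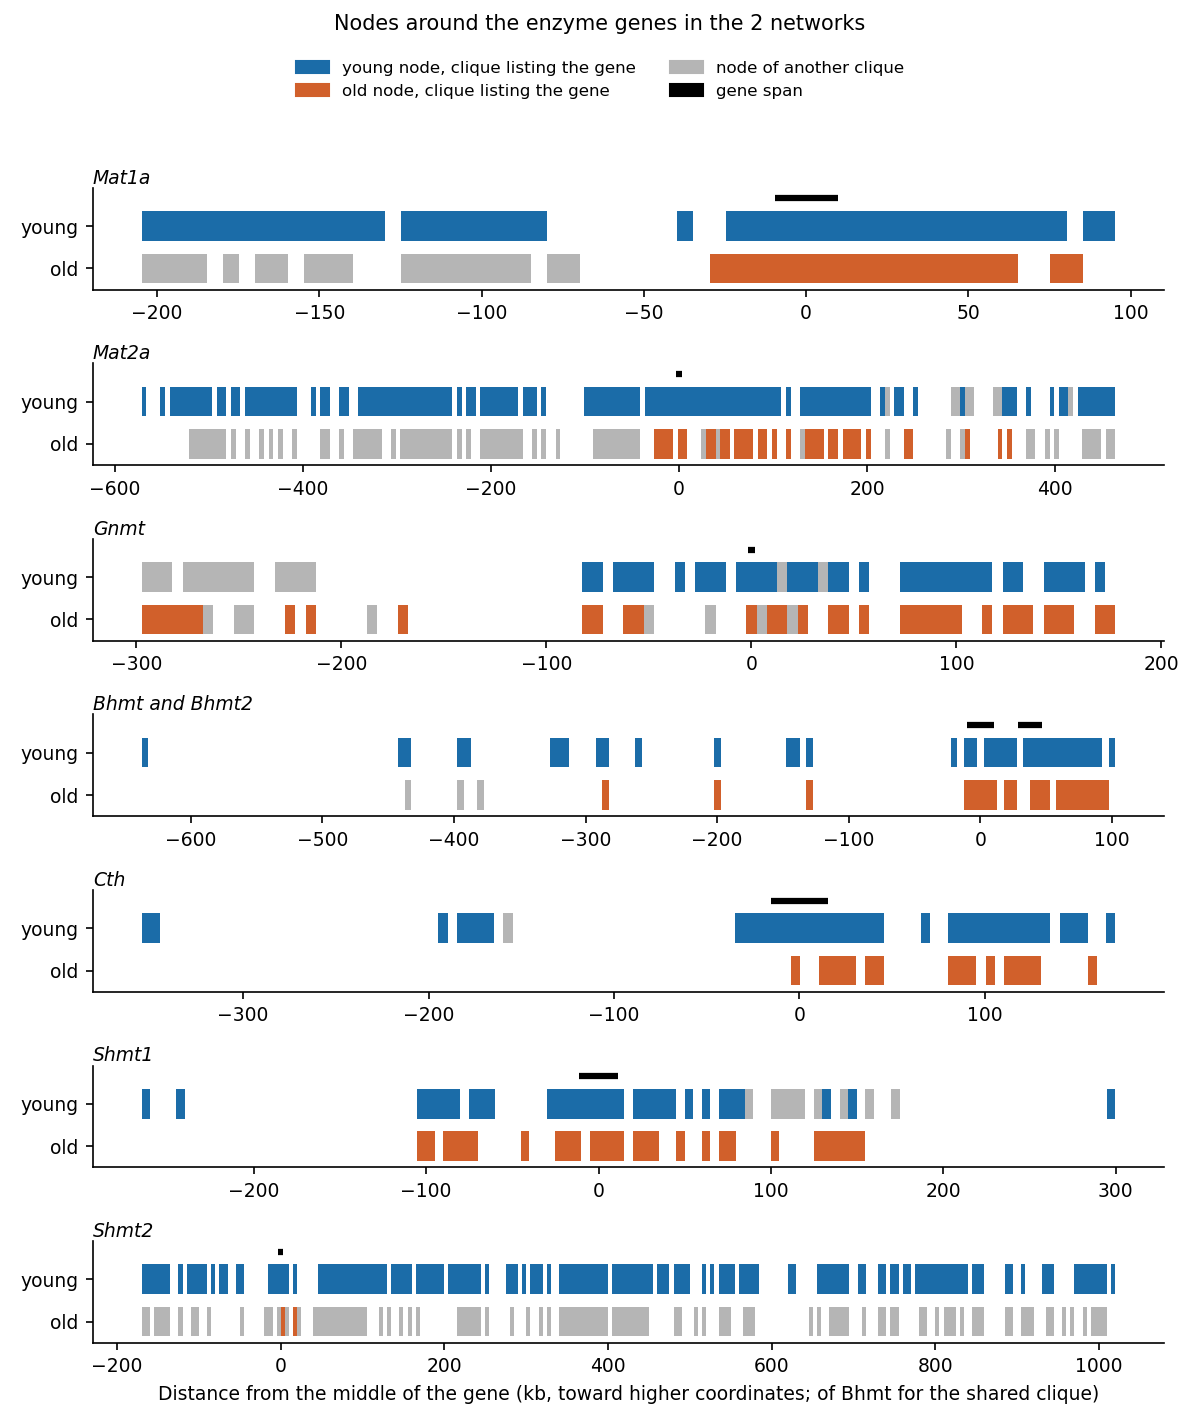
Nodes (5 kb bins) around each gene in the young network (upper track) and the old network (lower track) against distance from the middle of the gene (kb), within the reach of the cliques that list it. Blue and orange mark nodes of the listing clique, grey nodes of other cliques, and black bars gene spans. Mat1a keeps its own block of nodes while the distant block is in another old clique, Cth has no old node on its lower side, and the 2 old nodes of Shmt2 sit among nodes of another clique.

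Shmt1 and Shmt2 encode the cytosolic and mitochondrial serine hydroxymethyltransferases, which pass a carbon from serine to folate and leave glycine. Shmt1 (chromosome 11, 60788897 to 60811265) tied with Bhmt for the highest Jaccard index of the 7 pairs of cliques, 0.5, with 20 nodes shared between 32 young and 28 old nodes. No young node had moved to another old clique, and 12 were absent. Of 9 protein-coding genes listed with it in young 8 were still listed with it in old, among them the nearest, Smcr8, Dhrs7b, Top3a and Mief2. Alkbh5, an RNA demethylase gene, was the exception and was in no old clique. The span shortened from 565 kb to 260 kb, and nodes filled 28.3% of its bins in young and 53.8% in old.

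Shmt2 (chromosome 10, 127517123 to 127522444) showed the greatest difference, and it rested on a single bin. Its young clique of 159 nodes spanned 1190 kb and listed 45 protein-coding genes. Of the young nodes 102 (64.2%, 56.4 to 71.2) were present in old, which was near the 66.5% of cliques of this size. They lay in 8 old cliques, of which the largest, with 69 nodes, held 62. The bin with the start site of Shmt2, from 127520001 to 127525000, was in an old clique of 2 nodes, whose other node began 15 kb higher. The bins directly below and directly above the start-site bin were both nodes of the old clique of 69. The bin below lies partly in the gene span, so that by gene span Shmt2 was in cliques of 159 and 69 nodes. Such a gap was uncommon: 464 of 6256 genes listed at both ages (7.42%) had a larger old clique by gene span than by listing. An old clique under 10% of the young size was found for Shmt2 alone among the 8, and for 6.79% of genes listed at both ages. Nxph4, a neurexophilin gene that starts 8.35 kb from Shmt2, was the only gene listed with Shmt2 at both ages. Of the 43 protein-coding genes listed with Shmt2 in young and not in old, 36 were in other old cliques and 7 in none.

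**Figure D4:**
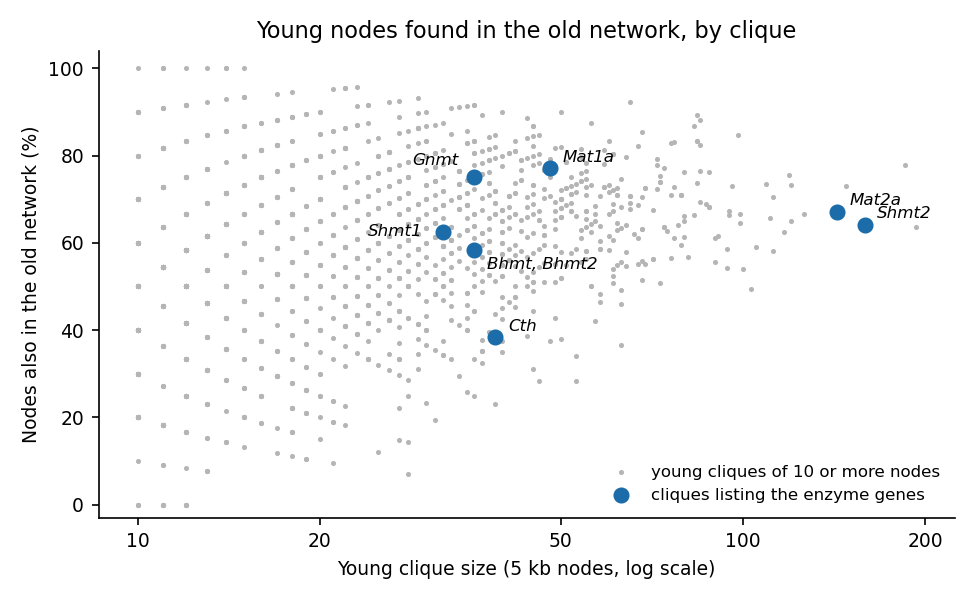
Share (%) of the nodes of each young clique that are also nodes of the old network against clique size (nodes, log axis), for young cliques of 10 or more nodes, with the 7 cliques of the enzyme genes in blue. Mat1a (77.1%) and Gnmt (75%) lie in the upper part and Cth (38.5%) near the lower edge of cliques of their size.

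The other genes of these pathways were followed in 6 lists of 52 genes, of which 37 were listed at either age. Their cliques were smaller in old for 27 of the 37, larger for 8 and equal for 2, while over all listed genes 78.5% were smaller and 17.9% larger. With scaled sizes 21 were smaller and 16 larger. No share over all genes was taken with scaled sizes, for this count or for those of the single lists below. The median log2 value was -0.89 for the 37 genes and -0.93 for all listed genes.

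The list of the methionine cycle and transsulfuration also held genes that act beyond these pathways. They are Cdo1 and Csad, of cysteine breakdown, and Gclc, Gclm and Gss, of glutathione synthesis. With these included, cliques were smaller in old for all 10 listed of 12 genes, and for 7 with scaled sizes. The median of the list was 65.5 nodes in young, against 23 in old. Mtr, the folate-dependent methionine synthase, was in cliques of 36 and 5 nodes. Ahcy, which splits S-adenosylhomocysteine into adenosine and homocysteine, was in cliques of 76 and 27. Gss, the glutathione synthetase, was in cliques of 76 and 19, and Ahcyl2, an Ahcy-like gene, in cliques of 10 and 2. Cbs, the enzyme before Cth in transsulfuration, was in cliques of 38 and 16 nodes, close to the 39 and 16 of Cth. Cbs was chosen after its values were seen.

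Among the lists, the folate list was the least often listed, with 9 of 17 genes at either age and 3 at both. The share of all protein-coding genes that were listed was not computed, so this count has no background. Of the 9, 6 were smaller in old, 2 larger and 1 equal. Mthfd2, a mitochondrial folate dehydrogenase and cyclohydrolase, had 56 nodes in young and was unlisted in old, where its gene span still met a set of 24. Ftcd, which joins histidine breakdown to folate, had 6 nodes in young and was unlisted in old, where its gene span met a set of 5. Fpgs, which adds glutamate to folate, had 47 nodes in old and was unlisted in young, where its gene span met a set of 50. Aldh1l1, a cytosolic formyltetrahydrofolate dehydrogenase, was in cliques of 59 nodes at both ages and was chosen after its values were seen.

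Among genes of choline and glycine oxidation, 5 of 7 listed were smaller in old and 2 larger. Gcsh, of the glycine cleavage system, had 11 nodes in young and was unlisted in old, where its gene span met a set of 3. Amt and Gldc of the same system were in cliques of 36 and 15 nodes and of 49 and 26, and Dmgdh, with Bhmt, of 36 and 21. The 3 methyltransferase genes were nearly level: Nnmt was in cliques of 68 and 61 nodes, Gamt of 185 and 160, and Pemt of 14 and 18. All 3 were larger in old with scaled sizes, for which the share over all genes is not known. Of the 6 listed genes of polyamine synthesis and methionine salvage 4 were smaller in old and 2 larger. Amd1, which decarboxylates S-adenosylmethionine for polyamine synthesis, was in cliques of 80 and 23 nodes, and the salvage genes Enoph1 and Mri1 were each in cliques of 7 and 2, with 6 in old by gene span for Mri1. Sms, the spermine synthase, had 2 nodes in old and was unlisted in young. In serine synthesis, Psph, the last enzyme of the pathway, was in cliques of 19 and 60 nodes, and Psat1 in cliques of 2 at both ages.

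**Figure D5:**
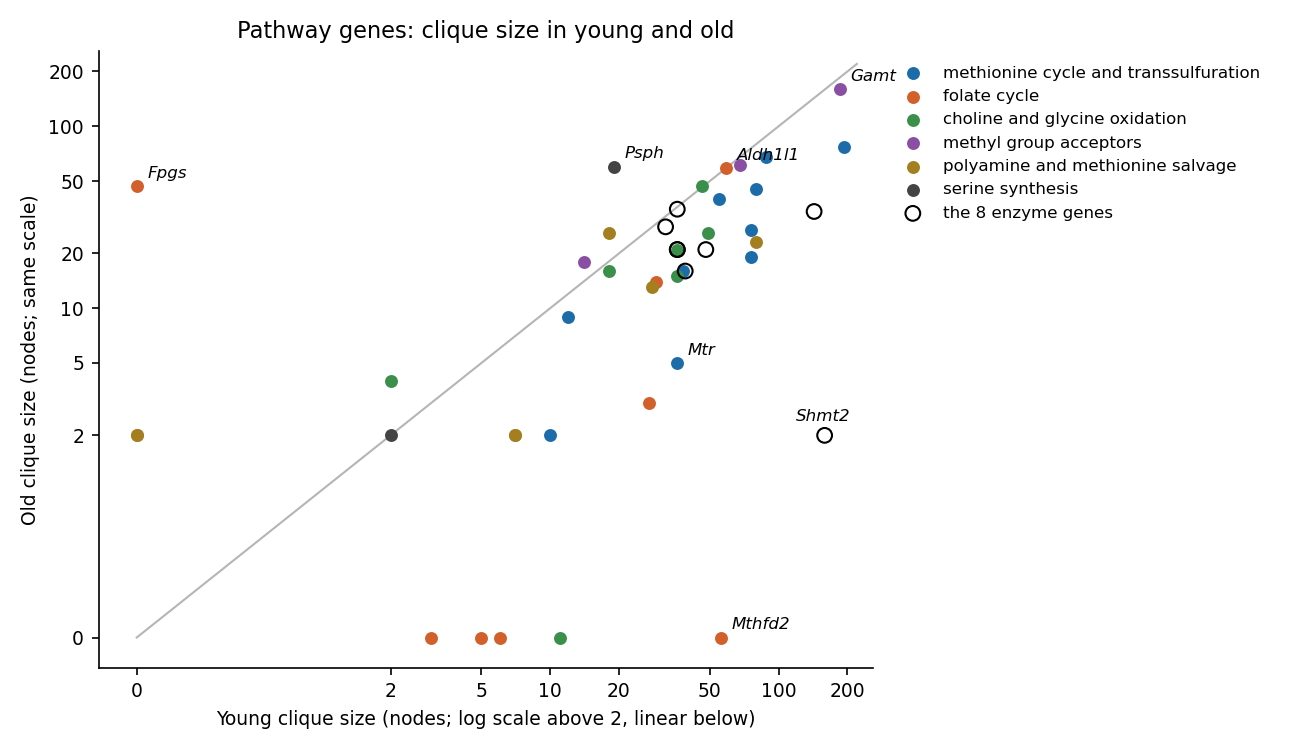
Clique size in young against old (nodes, both axes on a log scale above 2 and linear below, 0 meaning listed in no clique) for the 37 listed genes of the 6 pathway lists, coloured by list, with the 8 enzyme genes as open circles and the line of equal size. Most points lie below the line, Psph and Fpgs lie above it, and Mthfd2 and Shmt2 lie farthest below.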

How the data were processed

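H3K27ac Hi-ChIP libraries of young and old hepatocytes were processed by the authors with Bowtie2 and HiC-Pro on mm10 (GRCm38), per the submitters' processing notes, which give no versions. The authors deposited 2 tables per age. One holds the count of nodes, the gene names and the node names of each clique, and the other the position of each node, per the file headers. How loops were called, how cliques were formed and which promoter window was used is not stated there. Replicates were taken as pooled, and no library has values of its own, so depth per library and its precision are unknown.

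Nodes of the 2 ages were matched by bin. By symbol or unique synonym, the 16197 deposited gene names were matched to RefSeq (GRCm38.p6), which gave 9593 protein-coding genes. For clique sizes by gene span, the span was extended by 2500 bp on each side. Counts of bins or nodes within, below or above the gene span used the gene without this extension. Log2 values use a pseudocount of 1 node. Node matching was tested on simulated networks. Python 3.11.15, pandas 2.3.3 and scipy 1.17.1 were used. No covariate or test entered any comparison.

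The genes and lists were chosen with earlier results of these data known. Named genes are the 8 enzymes, up to 4 genes per list ranked by absolute log2 value, and up to 4 protein-coding genes nearest to a member among those sharing its clique at both ages. A gene that this rule names is not reported here. Alternatives covered gene assignment, clique size limits, scaling, pseudocounts and bin matching.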

Additional observations from a re-analysis of the deposited data

How the results depend on the processing

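No paired analysis was possible because each age has 1 pooled network, and for the same reason no library could be left out. All 8 genes stayed smaller in old by gene span. They also did so with cliques of at least 3 nodes and with the smallest listing clique, but these settings could not change the count. Each gene had 1 listing clique per age, and only the old clique of Shmt2 had under 3 nodes. The number with a larger old clique was 0 as reported, and 2 (Gnmt and Shmt1) both with scaled sizes (divided by the network's mean clique) and by percentile among cliques of the age. In the pathway lists, 8 genes were larger in old as reported, 16 with scaled sizes and 15 by percentile. The median log2 value of the 8 genes was -0.95, and -0.27 with scaled sizes, where adding 1 after the division draws values toward 0. It ran from -1.16 to -0.84 under the other settings, which include 1 gene per pair of cliques, a setting added after seeing the data. Accepting a neighbouring bin as a match took the share of young nodes present in old from 64.5% to 87.6% (75.1% over all young nodes), and that of old nodes present in young from 89.8% to 98.7% (87.9% over all old nodes). Of 48 alternative clique sizes of single genes, 2 moved by over 1.5 times, both for Shmt2 in old: 69 nodes by gene span, and no clique with at least 3 nodes required. Among the 48, the sizes by smallest listing clique could not move. A missing node can reflect too few contacts as well as a lost one, which unknown depth does not allow to be separated.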

Other observations

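Of the 52 pathway genes, 15 were listed at neither age, and 5 of these nonetheless had nodes in or near the gene span in both networks. Each of the 5 had the smaller clique in old. The share over all genes by gene span was not taken, but by listing it was 81.5% of genes listed at both ages. The 5 are therefore not read as a result about the pathway. Phgdh, the first enzyme of serine synthesis, had cliques of 81 and 42 nodes in its gene span, Ahcyl1 had 68 and 39, and Slc19a1, the reduced folate carrier, had 33 and 22. These genes were chosen after their values were seen.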
